A study of Rattus norvegicus with 12 samples.

Results

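The macrophage genes described here were 10 genes by which macrophages are commonly recognized: Cd68, Cd163, Adgre1, Csf1r, Marco, Mrc1, C1qa, C1qb, C1qc and Vsig4. A probe set, the group of array oligonucleotides that reads one transcript, was taken where the platform annotation gave it exactly one gene symbol and that symbol was among the 10. This rule found 8 of 14217 genes with such a probe set, each with 1 of the 31042 probe sets tested. Marco and Vsig4 had no such probe set and were not analysed here. The rule uses no measured value.

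RNA was taken from the tibia of female Sprague-Dawley rats at postnatal day 34, after the bone marrow had been aspirated. The CAS group ate a casein diet from postnatal day 21, as the labels give it, and the SPI group ate a diet with soy protein isolate as its protein. The E2 group ate casein and received 17 beta estradiol (spelled estrodial in the labels), and the SPI+E2 group combined soy protein isolate with the hormone. Estradiol came from a pump implanted under the skin, and the methods describe no pump for CAS or SPI, so implantation and hormone cannot be told apart. Each group had 3 of the 12 arrays, and RNA of several rats was pooled for an array. What the p-values measure is thus the variation among pools, and the small number of arrays limits the precision. Values are log2 expression centred on the median of each probe set over the 12 arrays. They show differences between arrays and no absolute level, so the marker genes cannot show how many macrophages the bone held. In whole bone, fewer cells of a type and less RNA per cell cannot be told apart.

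Macrophages of bone arise from blood monocytes and from precursors seeded before birth, and they line bone surfaces, clear dying cells and iron, and share a precursor with the bone-resorbing osteoclast. Their survival and growth depend on CSF1, which binds the receptor encoded by Csf1r, and the transcription factor PU.1 switches on many of their genes. The members do different work. Cd68 encodes a membrane protein of lysosomes, Cd163 the receptor for hemoglobin bound to haptoglobin, Mrc1 the mannose receptor and Adgre1 an adhesion receptor of the macrophage surface. C1qa, C1qb and C1qc encode the chains of C1q, which starts the classical complement pathway and which macrophages secrete. Cd68 and Csf1r are also used by osteoclasts and by other myeloid cells.

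The upstream sequences of the members differ in the letters GAGGAA, which are a form of the site bound by PU.1. The 3 shown are of the gene that changed most and of a pair of C1q genes from the same stretch of chromosome 5. Each is the 250 bases before the gene start, read 5′ to 3′ on the strand of the gene from RefSeq, build GRCr8. Capitals mark the letters GAGGAA on either strand, written TTCCTC where they lie on the other strand. The Cd68 sequence lies at chr10:54882442-54882691 on the minus strand, C1qb at chr5:154407828-154408077 and C1qa at chr5:154419934-154420183, both on the minus strand.
Cd68: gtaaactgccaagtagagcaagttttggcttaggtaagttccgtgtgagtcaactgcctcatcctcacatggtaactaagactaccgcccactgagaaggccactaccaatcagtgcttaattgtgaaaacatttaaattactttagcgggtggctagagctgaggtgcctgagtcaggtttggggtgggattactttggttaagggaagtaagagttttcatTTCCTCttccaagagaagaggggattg
C1qb: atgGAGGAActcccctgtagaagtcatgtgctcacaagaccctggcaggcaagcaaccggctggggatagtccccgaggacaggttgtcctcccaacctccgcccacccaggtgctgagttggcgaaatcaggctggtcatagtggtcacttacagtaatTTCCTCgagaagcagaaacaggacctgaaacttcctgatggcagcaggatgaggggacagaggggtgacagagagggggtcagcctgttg
C1qa: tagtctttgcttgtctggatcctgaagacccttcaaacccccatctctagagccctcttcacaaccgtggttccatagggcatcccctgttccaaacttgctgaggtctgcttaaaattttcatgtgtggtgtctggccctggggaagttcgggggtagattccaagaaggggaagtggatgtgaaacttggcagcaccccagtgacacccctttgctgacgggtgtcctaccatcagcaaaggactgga
Cd68 held 1 match, starting 27 bases before the gene start. C1qb held 2, at 247 and 90 bases, and C1qa held 0. Of the 9 members in the promoter table, 6 held GAGGAA within 250 bases (Cd68, Csf1r, C1qb, Adgre1, Mrc1 and Marco), against 23.3% of all 33469 promoters. TGCTGA, found in the sites of MAF factors, was found for 3 of 9 (C1qa, C1qb and Adgre1; 15.1% of all promoters). TTGCNNAA, the core of C/EBP factors, was found for 1 of 9 (Adgre1; 9.22%). Both strands were searched and none of these matches overlapped another. A match in these letters describes the sequence and does not show binding. Shorter or other forms of these sites were not searched, so a sequence with 0 matches may still hold one. C1qb, C1qc and C1qa follow each other on chromosome 5 with no other gene between them in the RefSeq gene table.

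Cd68 had the largest difference between groups of any member, that of SPI+E2 over E2. Its centred log2 values were 0.01, -0.07 and -0.10 in CAS pools 1 to 3. They were 0.12, 0.05 and -0.01 in SPI and -0.20, -0.17 and -0.07 in E2. In SPI+E2 they were 0.36, 0.40 and 0.44. All 3 SPI+E2 arrays lay above the other 9 arrays, the SPI arrays lay above the E2 arrays, and CAS overlapped both SPI and E2. How many of all probe sets separate groups without overlap was not counted, here or for the members below. Such separations therefore only describe the values.

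Cd68 rose in SPI+E2 over each of the other groups. The rise was 0.46 log2 units over CAS, which is 1.37-fold (SE 0.0548, 95% interval 0.34 to 0.58, limma adjusted p = 0.000499, 3 arrays against 3). Over SPI it was 0.35, or 1.27-fold (limma adjusted p = 0.00141), and over E2 it was 0.55, or 1.46-fold (limma adjusted p = 0.000106). These rises kept their call without any one array, with adjusted p of at most 0.004 over CAS. Neither treatment alone moved Cd68 past the test. The difference from CAS was 0.11 with SPI (95% interval -0.01 to 0.23, limma adjusted p = 0.209) and -0.09 with E2 (95% interval -0.21 to 0.03, limma adjusted p = 0.411). The change with E2 thus differed between the diets: on SPI it was 0.44 higher than on casein (SE 0.0775, limma adjusted p = 0.00306 for the interaction term). From high to low the order was SPI+E2, SPI, CAS and E2, in which the neighbours SPI and CAS, and CAS and E2, did not differ past the test.

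SPI and E2 alone differed for Cd68, by 0.20 (SE 0.0548, limma adjusted p = 0.0276), with SPI higher. This call was lost without SPI pool 1 (adjusted p = 0.0871), SPI pool 2 (0.0612), E2 pool 1 (0.105) or E2 pool 2 (0.0798), and in a fit of these groups alone (0.0887).

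Csf1r, the receptor for the growth factor of macrophages, had the same order of groups with smaller steps. Its values were -0.00068, -0.0093 and -0.029 in CAS pools 1 to 3 and 0.00068, 0.054 and 0.065 in SPI. They were -0.092, -0.087 and -0.145 in E2 and 0.148, 0.097 and 0.158 in SPI+E2. The 4 groups did not overlap, although the lowest SPI array and the highest CAS array lay next to each other.

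Csf1r rose by 0.24 in SPI+E2 over E2, which is 1.18-fold (SE 0.0441, 95% interval 0.15 to 0.34, limma adjusted p = 0.00499), and this call was kept in every alternative in which the probe set was tested. SPI exceeded E2 by 0.15 (limma adjusted p = 0.0392). That call was lost without any one of 9 arrays, up to an adjusted p of 0.135 without E2 pool 3, and in a fit of the SPI and E2 groups alone (0.124). Over CAS the SPI+E2 difference was 0.15 (95% interval 0.05 to 0.24, limma adjusted p = 0.062). Among the alternatives it passed only with a mean per gene (adjusted p = 0.0253), array weights (0.0417) and unmoderated variance (0.00902). Csf1r had 1 probe set, so the mean per gene averaged none of its values. SPI+E2 minus SPI was 0.09 (limma adjusted p = 0.214), SPI minus CAS 0.05 (0.466) and E2 minus CAS -0.10 (0.252), so no neighbours in the order of Csf1r differed past the test. The interaction was 0.19 (SE 0.0623, limma adjusted p = 0.0845).

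**Figure D1:**
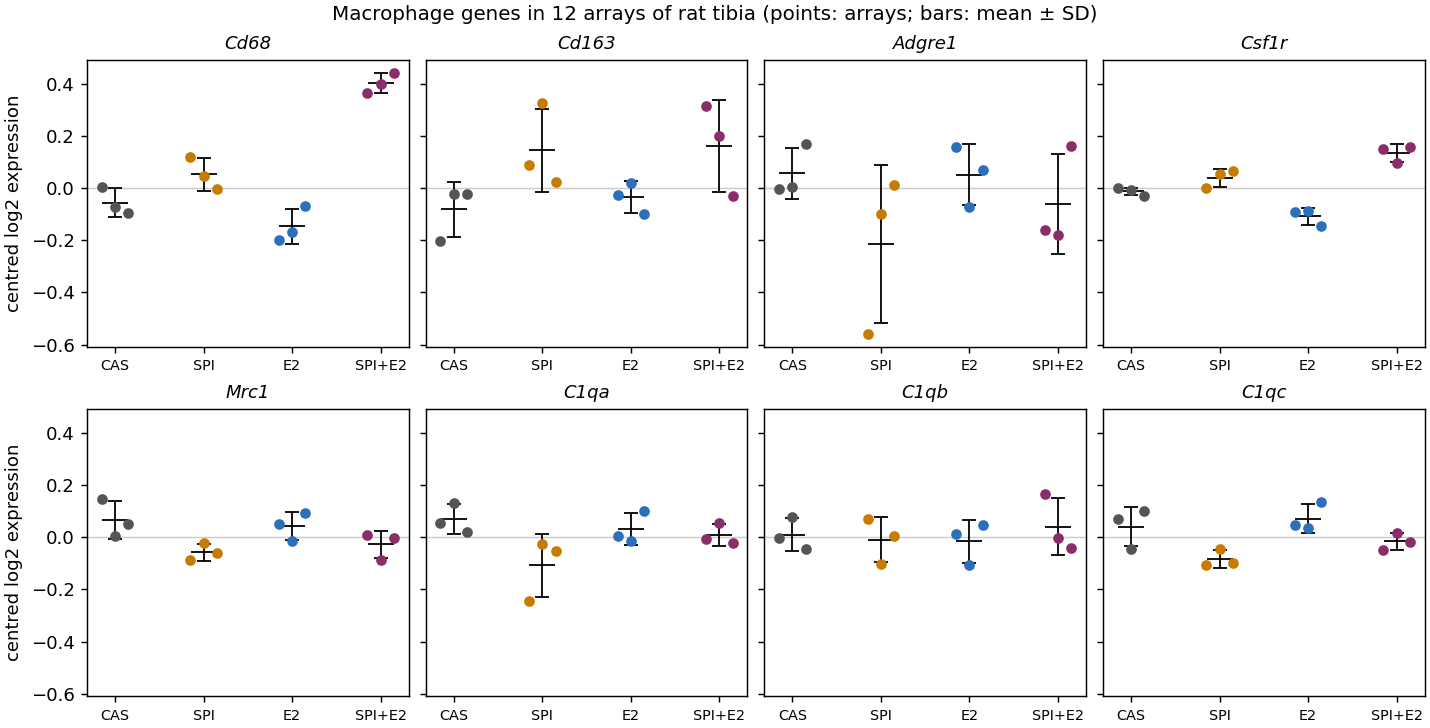
Centred log2 expression of the 8 macrophage genes (vertical axis) in CAS, SPI, E2 and SPI+E2 (horizontal axis), with 1 point per array, and the mean ± SD of 3 arrays as bars. The 3 SPI+E2 arrays of Cd68 sit between 0.36 and 0.44, above the other 9, while the groups overlap for C1qb and Adgre1.

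The receptors Cd163, Mrc1 and Adgre1 did not pass the test in any comparison. Cd163 was -0.20, -0.02 and -0.02 in CAS, 0.09, 0.32 and 0.02 in SPI, -0.03, 0.02 and -0.10 in E2 and 0.31, 0.20 and -0.03 in SPI+E2. All SPI arrays lay above all CAS arrays, while the SPI+E2 arrays were spread from below CAS pool 2 to the level of SPI pool 2. The differences from CAS were 0.23 with SPI (SE 0.0982, 95% interval 0.01 to 0.44, limma adjusted p = 0.144) and 0.24 with SPI+E2 (95% interval 0.03 to 0.46, limma adjusted p = 0.157). Without SPI pool 2 the SPI difference was 0.14 (adjusted p = 0.4).

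Mrc1 stood at 0.15, 0.004 and 0.05 in CAS and -0.09, -0.02 and -0.06 in SPI. It was 0.05, -0.01 and 0.09 in E2 and 0.01, -0.09 and -0.004 in SPI+E2. Each SPI array was below each CAS array, and the difference was -0.12 (SE 0.0539, 95% interval -0.24 to -0.01, limma adjusted p = 0.142).

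Adgre1 was the most variable member. It was -0.003, 0.003 and 0.17 in CAS, 0.16, -0.07 and 0.07 in E2 and -0.16, -0.18 and 0.16 in SPI+E2. In SPI it was -0.56, -0.10 and 0.01, so SPI pool 1 stood far below its group. That array also had the widest spread over all probe sets, with an SD of 0.211 against 0.128 to 0.164 in the other 11. SPI minus CAS was -0.27 with a wide interval (SE 0.138, 95% interval -0.57 to 0.03, limma adjusted p = 0.213), and -0.10 without SPI pool 1 (adjusted p = 0.633).

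The 3 chains of C1q are assembled into one protein, and their genes follow each other on the chromosome. C1qa and C1qc had similar values over the groups, and C1qb had others. C1qa was 0.05, 0.13 and 0.02 in CAS, -0.25, -0.02 and -0.05 in SPI, 0.01, -0.01 and 0.10 in E2 and -0.01, 0.05 and -0.02 in SPI+E2. C1qc was 0.07, -0.05 and 0.10 in CAS, -0.11, -0.05 and -0.10 in SPI, 0.05, 0.03 and 0.13 in E2 and -0.05, 0.02 and -0.02 in SPI+E2. For both, the SPI arrays lay below the CAS and E2 arrays, although C1qc in SPI pool 2 and CAS pool 2 had nearly the same value.

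C1qb was -0.005, 0.08 and -0.04 in CAS and 0.07, -0.10 and 0.003 in SPI. It was 0.01, -0.11 and 0.05 in E2 and 0.17, -0.003 and -0.04 in SPI+E2, and all 4 groups overlapped. SPI minus CAS was -0.18 for C1qa (SE 0.0647, 95% interval -0.32 to -0.04, limma adjusted p = 0.0847), -0.12 for C1qc (SE 0.0527, limma adjusted p = 0.134) and -0.02 for C1qb (95% interval -0.17 to 0.14, limma adjusted p = 0.889). SPI minus E2 was -0.16 for C1qc (limma adjusted p = 0.0661). Among the alternatives it passed only with a mean per gene (adjusted p = 0.0343) and with unmoderated variance (0.0439). C1qc had 1 probe set, so the mean per gene averaged none of its values. Without SPI pool 1, the lowest array for C1qa, the C1qa difference was -0.11 (adjusted p = 0.264). The C1qb interval leaves room for a change as large as that of C1qc.

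Counted together, 0 of 8 members rose and 0 fell with SPI against CAS in limma, where 8.25% of all 31042 probe sets rose and 9.07% fell. At an unadjusted p under 0.05 there were 4 (Cd163, Mrc1, C1qa and C1qc), as had 9428 of the 31042 probe sets. With E2 against CAS 0 of 8 rose and 0 fell in limma, beside 4.99% and 4.36% of all probe sets, and 0 had an unadjusted p under 0.05, beside 6315 of the 31042 probe sets. The largest E2 differences were those of Csf1r and Cd68, and in an unmoderated linear model Csf1r passed (adjusted p = 0.0479). With SPI+E2 against CAS 1 of 8 rose (Cd68) and 0 fell, beside 4.14% and 4.33%.

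SPI against E2 gave 2 of 8 higher in SPI (Cd68 and Csf1r) and 0 lower, where 7.98% and 8.75% of all probe sets were called. The count was 0 in the fit of these groups alone. SPI+E2 gave 1 of 8 higher than SPI (Cd68; all probe sets, 5.56% higher and 5.83% lower) and 2 of 8 higher than E2 (Cd68 and Csf1r; 4.92% and 5.53%). The interaction was called for 1 of 8 (Cd68), where it was positive for 4.17% of all probe sets and negative for 5.75%. With 8 members the shares are coarse, since 1 of 8 is already more than each of these percentages. These comparisons share control arrays and are not independent of each other.

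With SPI relative to CAS, the median over the members was -0.07 against 0.01 for all probe sets, with 3 differences positive and 5 negative. It was -0.02 against -0.01 with E2 and -0.01 against 0.02 with SPI+E2, each relative to CAS. For SPI+E2 relative to SPI all 8 differences were positive, with a median of 0.08 against 0.01 for all probe sets, and 1 of them was called. The sign turned without single arrays for Cd163 (-0.06 without SPI+E2 pool 1), Adgre1 (-0.02 without SPI pool 1) and C1qb (-0.01 without SPI+E2 pool 1).

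**Figure D2:**
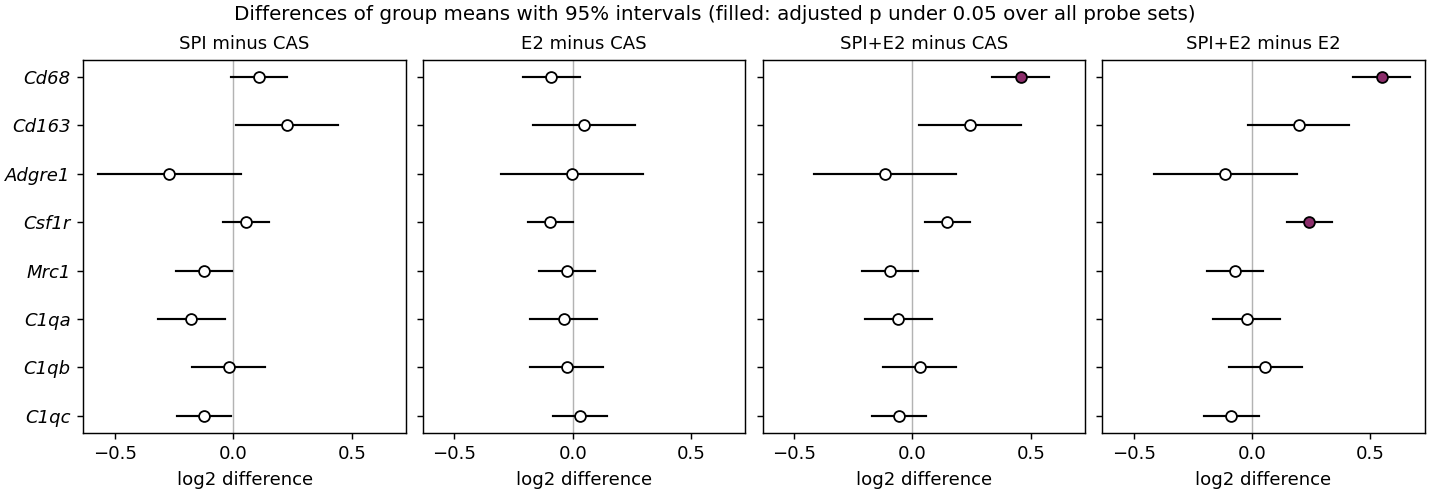
Differences of group means in log2 units (horizontal axis) for each of the 8 genes (vertical axis) in 4 comparisons, with 95% intervals from limma as lines. Filled points passed an adjusted p of 0.05 over all probe sets: Cd68 at 0.46 in SPI+E2 minus CAS, and Cd68 at 0.55 and Csf1r at 0.24 in SPI+E2 minus E2.

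The members did not move as one set over the 12 arrays. Cd68 and Csf1r had a Pearson correlation of 0.87, but of -0.48 after each group mean was subtracted, so their likeness lay between groups and not between the pools of a group. Adgre1, Mrc1, C1qa and C1qc made 6 pairs with correlations from 0.55 to 0.74, and from 0.14 to 0.46 within groups. These 4 genes were grouped after the correlations were seen, so the high range follows in part from that choice. Cd68 or Csf1r against those 4 genes gave 8 correlations from -0.59 to -0.17. Within groups these 8 ran from -0.41 to 0.54, so they were not all negative there. The 0.54, of Csf1r with Adgre1, was the highest within groups of all 28 pairs. C1qb had 0.0047 with C1qa and -0.24 with C1qc. The 28 correlations ran from -0.62 to 0.87. All points share the same 12 arrays, 4 groups and centring, and no p-value is given.

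**Figure D3:**
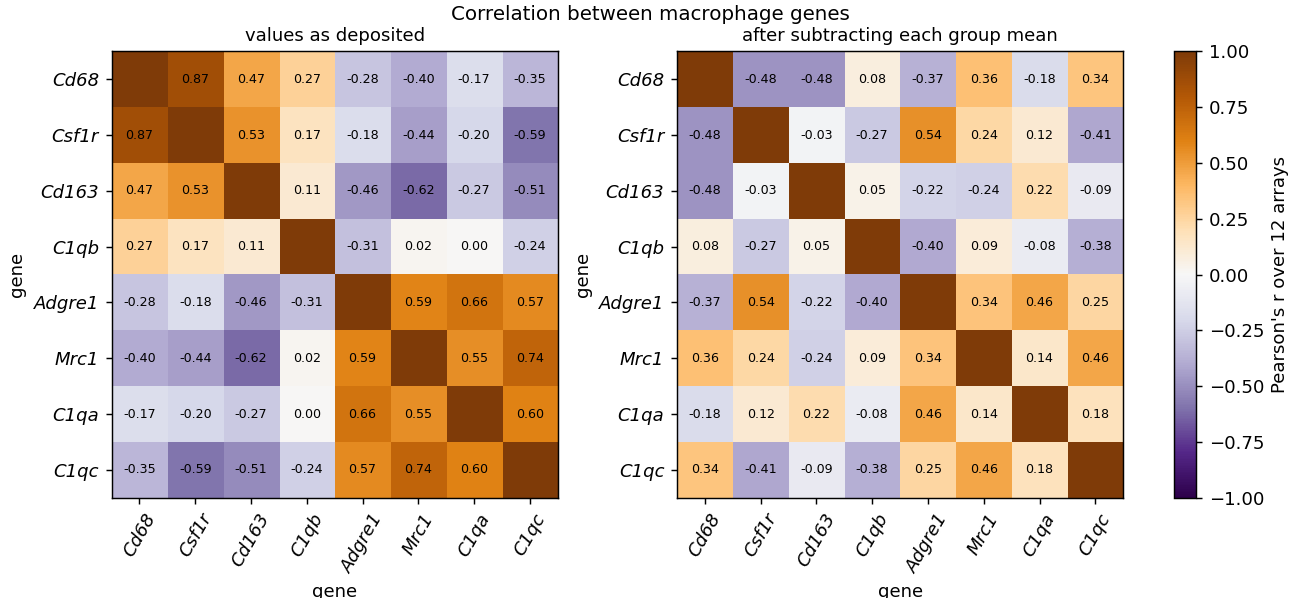
Pearson's r over 12 arrays between each pair of the 8 genes, on both axes, for the deposited values (left) and after the group mean was subtracted (right), with r printed in each cell and shown by color. Cd68 and Csf1r have 0.87 on the left and -0.48 on the right. Adgre1, Mrc1, C1qa and C1qc, placed together after the correlations were seen, have 0.55 to 0.74 on the left and 0.14 to 0.46 on the right.

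The genes most like the mean of the 8 members over the 12 arrays were Slirp (r = 0.928), Dpp8 (0.898), Mto1 (0.895), Emcn (0.892) and Xpo4 (0.888), of 14217 genes, and none of them is a macrophage marker. Cd68 and Csf1r were also taken alone, a choice made after their values were seen. Most like Cd68 were Defa5 (0.980), Frat2 (0.974), Tfap2b (0.971), Adcy3 (0.970) and Npy (0.966). Most like Csf1r were Gusb (0.959), which encodes a lysosomal enzyme, the neutrophil defensin gene RatNP-3b (0.952), S100a8 (0.951), Pik3ap1 (0.951) and Acp5 (0.949), which encodes the acid phosphatase of osteoclasts.

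Genes of other cells that use Cd68 or Csf1r moved in the same comparisons. Over all probe sets, limma called 8.25% higher and 9.07% lower with SPI against CAS. With E2 the shares were 4.99% and 4.36%, and with SPI+E2 they were 4.14% and 4.33%. The counts of this list and of those below stand beside these shares. Of 12 osteoclast probe sets, 6 rose and 0 fell in SPI+E2 over CAS (median difference 0.24 against 0.02 for all probe sets), and 4 rose with SPI and 2 fell with E2. Without single arrays the SPI+E2 count was 6, the SPI count fell to 2 at its lowest (without CAS pool 1, CAS pool 3 or SPI pool 2), and the E2 count was 1 without any one of 11 arrays. They included Ctsk, the collagen-degrading protease of osteoclasts, which rose by 0.34 (SE 0.041, limma adjusted p = 0.000533), Mmp9, another protease, by 0.44 and 0.34 at its probe sets (limma adjusted p = 0.000208 and 0.00142), and Acp5, by 0.23 (limma adjusted p = 0.00506). The mean over the osteoclast probe sets ran from -0.06 to -0.05 in the CAS arrays, 0.02 to 0.09 in SPI, -0.12 to -0.06 in E2 and 0.11 to 0.17 in SPI+E2. That is the order of Cd68 and Csf1r, with CAS and E2 close to each other.

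Of 6 neutrophil probe sets, 3 rose and 0 fell in SPI+E2 over CAS (median 0.30) and 5 rose over E2 (all probe sets, 4.92%). Lcn2, the iron-binding lipocalin of neutrophil granules, rose by 0.83 (SE 0.047, limma adjusted p = 2.04e-06) and S100a8 by 0.41 (limma adjusted p = 0.00067). Array means of the neutrophil list were -0.12 to -0.06 in CAS, 0.07 to 0.13 in SPI, -0.24 to -0.20 in E2 and 0.20 to 0.32 in SPI+E2, without overlap. The part of osteoclasts or neutrophils in the Cd68 and Csf1r values was not tested. Since all values are centred, no marker of these cells can be said to be absent.

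Receptors and ligands of the CSF family came to 11 probe sets of 7 genes. In SPI+E2 over CAS 2 rose and 0 fell, and with SPI or E2 alone limma called 0, with 2 at an unadjusted p under 0.05 in each. Without SPI+E2 pool 3 the rises numbered 0. Csf2ra, a chain of the GM-CSF receptor, rose by 0.44 (SE 0.0985, limma adjusted p = 0.0169, and 0.0678 without CAS pool 3). Csf3r, the receptor of the neutrophil growth factor G-CSF, rose by 0.38 (SE 0.0939, limma adjusted p = 0.0291, and 0.117 without CAS pool 1). The list's median was 0.10 in SPI+E2, 0.08 with SPI and 0.01 with E2.

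Transcription factors of macrophages, 19 probe sets of 8 genes, had calls in both directions. With SPI 1 rose and 3 fell (all probe sets, 8.25% and 9.07%). With E2 2 rose and 2 fell (4.99% and 4.36%), and with SPI+E2 1 rose and 1 fell (4.14% and 4.33%). The falls with SPI numbered 1 without CAS pool 1 or SPI pool 1. Cebpa, needed for early myeloid cells, fell with SPI by 0.31 at 1 probe set (SE 0.0655, limma adjusted p = 0.00639) and by 0.32 at another (limma adjusted p = 0.0278, and 0.0884 without CAS pool 1), and was -0.21 at the remaining one (0.118). Irf8, which directs monocyte development, fell with E2 by 0.36 (SE 0.0791, limma adjusted p = 0.012, and 0.058 without CAS pool 1). Maf rose with E2 by 0.34 (SE 0.0645, limma adjusted p = 0.00515). Zeb2 had probe sets that disagreed: with SPI one rose by 0.33 while the other was at 0.02, and the call was lost when they were averaged.

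Complement genes other than C1q gave 15 probe sets, of which 0 rose and 1 fell with SPI (all probe sets, 8.25% and 9.07%). With E2 3 rose and 2 fell (4.99% and 4.36%), and with SPI+E2 1 rose and 0 fell (4.14% and 4.33%). The falls with E2 numbered 0 without CAS pool 3 or E2 pool 2. Cd55, which shields cells from complement, rose with E2 at both named probe sets, by 0.48 and 0.45 (limma adjusted p = 0.00038 and 0.000453), and in SPI+E2 it stood at -0.15 and -0.18 from CAS, not past the test. C5ar1, the receptor for the complement fragment C5a, rose by 0.42 in SPI+E2 (SE 0.0498, limma adjusted p = 0.000481). Itgax, the integrin chain CD11c, fell with E2 by 0.27 (limma adjusted p = 0.0329, and 0.131 without E2 pool 2).

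Scavenger and lectin receptors with the ligands that bridge dying cells to phagocytes came to 20 probe sets. With SPI 3 rose and 3 fell, with E2 6 rose and 1 fell, and with SPI+E2 5 rose and 0 fell. The E2 rises numbered 1 without E2 pool 3. Cd36, a fatty acid and lipoprotein receptor, fell with SPI by 0.51 (SE 0.0563, limma adjusted p = 8.43e-05), and Cd14, which binds bacterial lipopolysaccharide, by 0.35 (SE 0.0648, limma adjusted p = 0.00294). Clec7a, the receptor for fungal glucans, rose by 0.31 with SPI (limma adjusted p = 0.00539) and by 0.50 with SPI+E2 (limma adjusted p = 0.000631), and with E2 was -0.18 (0.123).

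Cd5l, which macrophages secrete, fell with E2 by 0.75 (SE 0.138, limma adjusted p = 0.00406). Lgals3, a galectin of phagocytes, rose in all 3 treatments, by 0.20 in SPI, by 0.36 in E2 and by 0.34 in the combination (limma adjusted p = 0.007, 0.000222 and 0.000742). Gas6, which bridges dying cells to the phagocyte receptors Axl and Mertk, also rose in each, by 0.21, 0.24 and 0.32 (limma adjusted p = 0.0179, 0.0127 and 0.0038).

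Fc receptors and their signaling partners, 12 probe sets, had 2 risen and 0 fallen with SPI, 0 risen and 2 fallen with E2, and 3 risen and 0 fallen with SPI+E2. SPI+E2 exceeded E2 at 5 of 12 and fell below it at 0 (all probe sets, 4.92% and 5.53%). The counts with SPI or E2 alone were each 1 without some single arrays, the SPI count without CAS pool 1, CAS pool 3, SPI pool 2 or SPI pool 3, and the E2 count without CAS pool 1, E2 pool 2 or E2 pool 3. Tyrobp, the adaptor known as DAP12, used by both macrophages and osteoclasts, rose in SPI+E2 by 0.33 (SE 0.0547, limma adjusted p = 0.00353). Fcer1g, the common gamma chain of Fc receptors, rose by 0.20 (SE 0.0431, limma adjusted p = 0.0138, and 0.0563 without SPI+E2 pool 2). Syk, the kinase that both adaptors recruit, rose by 0.36 with SPI (SE 0.053, limma adjusted p = 0.00071) and fell by 0.29 with E2 (limma adjusted p = 0.00358).

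Genes shared by monocytes and phagocytes, 21 probe sets, had 3 higher and 0 lower with SPI, 0 higher and 4 lower with E2, and 1 higher and 0 lower with SPI+E2. The number lower with E2 was 1 without CAS pool 2, CAS pool 3 or E2 pool 2, and the number higher with SPI was 1 without CAS pool 3 or SPI pool 2. The median with E2 was -0.11. Lyz2, the lysozyme of macrophages and neutrophils, fell with E2 by 0.26 (SE 0.0444, limma adjusted p = 0.00242), and Laptm5, a lysosomal protein of blood cells, rose with SPI by 0.30 (SE 0.0439, limma adjusted p = 0.000613). Cybb, a subunit of the oxidase that makes superoxide, fell with E2 by 0.24 (limma adjusted p = 0.0389, and 0.143 without E2 pool 2). The Cybb call was lost without any one of 7 arrays. It was also lost with a mean per gene, with unmoderated variance and among the more variable probe sets. Ptprc, the common leukocyte antigen CD45, fell by 0.36 (limma adjusted p = 0.0412, and 0.135 without CAS pool 3).

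Genes of activated macrophages, 13 probe sets, held few calls. SPI and E2 each raised 1 (all probe sets, 8.25% and 4.99%), SPI+E2 raised 2 (4.14%), and 0 fell in limma. Each of these counts went to 0 without CAS pool 2 or CAS pool 3. Arg1, the arginase of alternatively activated macrophages, rose by 0.37 with SPI (SE 0.0949, limma adjusted p = 0.019, and 0.0813 without CAS pool 3) and by 0.38 with SPI+E2 (limma adjusted p = 0.0278, and 0.111 without CAS pool 3). Ccl2, which attracts monocytes, rose by 0.34 with E2 (SE 0.0814, limma adjusted p = 0.0208, and 0.0873 without E2 pool 1). Il1b, the inflammatory cytokine, rose by 0.35 with SPI+E2 (limma adjusted p = 0.049, and 0.135 without CAS pool 1).

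In each treatment most heme and iron probe sets did not pass the test against CAS, and those that did were lower. Of 12 probe sets 4 fell and 0 rose with SPI, 5 fell and 0 rose with E2, and 2 fell and 0 rose with SPI+E2. The interaction was called as positive for 7 (all probe sets, 4.17%). The falls with SPI numbered 2 without CAS pool 3. Blvrb, a biliverdin reductase, fell by 0.35 with SPI, by 0.71 with E2 and by 0.42 in the combination (limma adjusted p = 0.000732, 5.29e-06 and 0.000676). Tfrc, the transferrin receptor, fell by 0.44, 0.37 and 0.35 (limma adjusted p = 0.000278, 0.00112 and 0.003). Blvrb and Tfrc are also used by red cell precursors. The 10 erythroid probe sets moved with them: 8 fell in SPI, 10 fell in E2 and 9 fell in the combination. The interaction was called as positive for 9 of these 10 and as negative for 0. The lowest and highest array means of the erythroid list were 0.48 and 0.49 in CAS, 0.07 and 0.09 in SPI, -0.36 and -0.30 in E2 and -0.06 and -0.04 in SPI+E2. The part of erythroid cells in the heme and iron values was not tested. Slc40a1, the iron exporter of macrophages, fell with SPI by 0.28 (limma adjusted p = 0.0249, and 0.0969 without CAS pool 3).

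Other cell types were described by the same counts. Over all probe sets 8.25% were higher and 9.07% lower with SPI. The shares were 4.99% and 4.36% with E2, and 4.14% and 4.33% with SPI+E2. MHC class II genes, 15 probe sets, had 4 higher with SPI, 2 higher and 1 lower with E2, and 6 higher with SPI+E2. Cd74, the invariant chain, rose by 0.22 in SPI+E2 (SE 0.0529, limma adjusted p = 0.0248). RT1-Bb rose by 0.89 with E2 and by 0.83 with SPI+E2 (limma adjusted p = 1.99e-06 and 1.17e-05). The class II genes belong to a family of near copies, and the probe sets of RT1-Ba went opposite ways with E2 (0.32 and -0.42), so they are uncertain. Without CAS pool 2 their rises with SPI numbered 0. B cell genes, 3 probe sets, had 2 higher with SPI, 3 lower with E2 and 2 lower with SPI+E2. T cell genes, 10 probe sets, had 0 called with SPI in limma and 0 at an unadjusted p under 0.05, 2 lower with E2 and 1 higher with SPI+E2, and endothelial genes, 8 probe sets, 2 lower, 1 lower and 1 higher. Without CAS pool 3 the 3 endothelial counts were 0, 1 B cell gene was higher with SPI, and T cell genes had 1 lower with E2 and 0 higher with SPI+E2. Nerve genes, 15 probe sets, had 14 higher with SPI, 12 higher with E2, and 6 higher and 2 lower with SPI+E2.

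**Figure D4:**
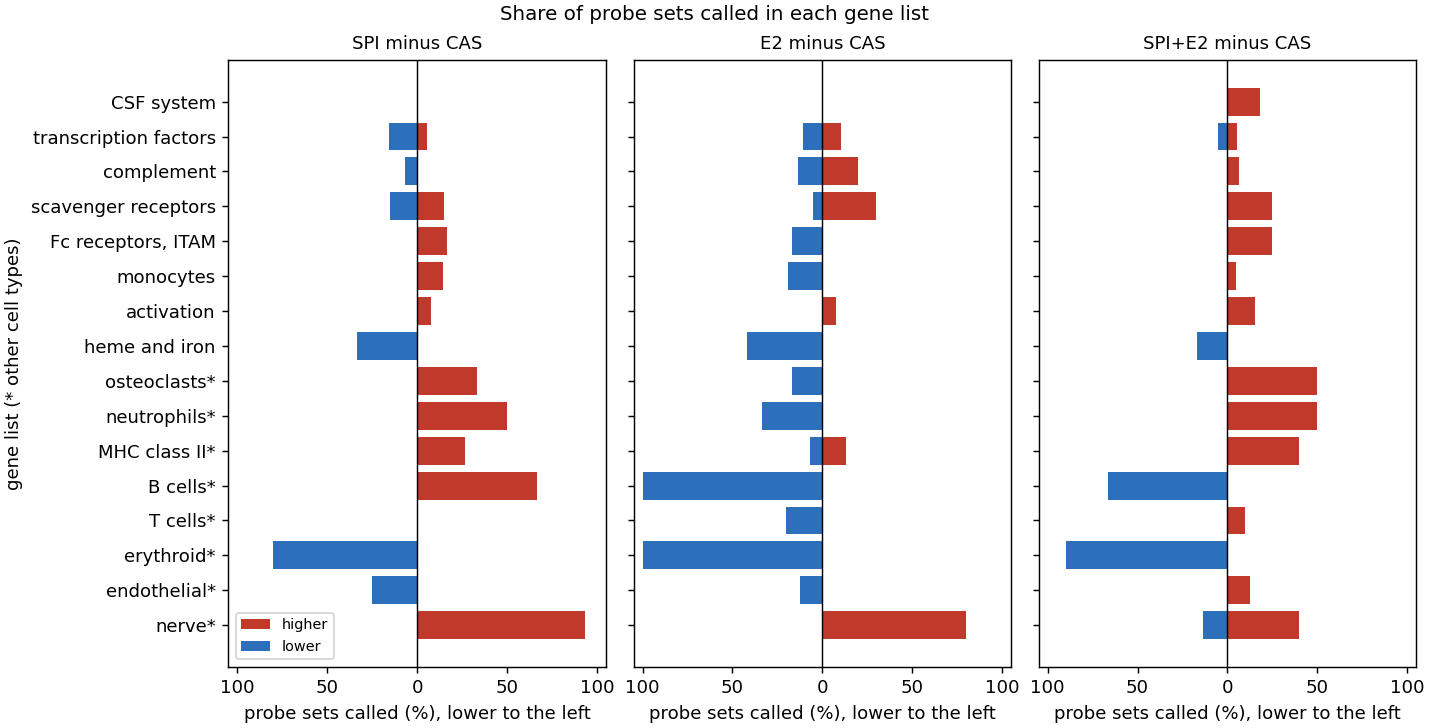
Percent of the probe sets of each gene list (vertical axis; an asterisk marks lists of other cell types) that limma called in SPI, E2 or SPI+E2 minus CAS, with higher drawn to the right and lower to the left of 0. In SPI+E2, 6 of 12 osteoclast and 3 of 6 neutrophil probe sets rose, while 9 of 10 erythroid probe sets fell. Over all probe sets 4.14% rose and 4.33% fell there.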

How the data were processed

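Arrays of 12 RNA pools (3 in each of 4 groups, assigned from the sample labels) were used. The processing notes of the submitters name GCOS and RMA, with no version. Per-chip and per-gene normalization in GeneSpring followed, and the log2 values that the authors deposited are centred on each probe set's median over the 12 arrays. The log base follows the study's methods and cannot be read from the values. Were it natural, the 1.37-fold rise of Cd68 would be 1.58-fold.

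The table had 31099 probe sets. Leaving out 57 controls left 31042 for testing. The platform annotation gave 1 symbol to 20826, several to 436 and no name here to 9780. RefSeq's gene table (build GRCr8) listed 20758 of the gene numbers, and 0 symbols changed. Columns of sample values without a sample numbered 0. Probe intensities and detection over background were not used here.

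All 4 groups entered one linear model in limma 3.58.1 (R 4.3.3). Benjamini-Hochberg adjustment ran over all probe sets, with 0.05 as threshold, and intervals are 95% intervals of that fit. The steps were tested on simulated data. Gene lists are described by counts and medians without a set test. Named were every member, up to 3 probe sets per list and comparison with CAS with the largest called change, of which some are printed, and the 5 genes most like the members' mean. Members and lists were chosen with earlier results of these data known. Protein sequences of C1q were planned and not used here.

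Alternatives were a replicate block, fits of the compared groups alone, quantile normalization, median centring, trend and robust variance, array weights, a mean per gene, unmoderated variance (after the methods), testing only the more variable probe sets, and leaving out each array.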

Additional observations from a re-analysis of the deposited data

Results flagged for a closer look

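Among the macrophage genes, the change with E2 differed between the diets for Cd68, where the interaction term (change on SPI minus change on casein) was 0.44 log2 units (limma adjusted p = 0.00306). It kept its call in every alternative run.

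Genes of the macrophage lists with an interaction past the test were picked out in the same way. Positive values were found for Cd5l (0.82, adjusted p = 0.0187), Blvrb (0.65, 0.000116), Cd36 (0.55, 0.000769), Itgax (0.53, 0.00481), Slc40a1 (0.47, 0.0143), Tfrc (0.46, 0.00286), Irf8 (0.42, 0.0358), Cd93 (0.41, 0.0113), Tyrobp (0.39, 0.00631), Lyz2 (0.39, 0.00168), Clec7a (0.37, 0.0202), Blvra (0.34, 0.029) and Fcer1g (0.33, 0.00434). Negative values were found for Cd55 at both named probe sets (-0.80, adjusted p = 9.4e-05, and -0.66, 0.000292), Ccl2 (-0.49, 0.018) and Lgals3 (-0.22, 0.0395). All are from limma over the 12 arrays. The call was lost without any one array for Lgals3 (up to 0.095, without E2 pool 3), and without some single arrays for Irf8 (up to 0.092, without CAS pool 1), Blvra (0.0779, without E2 pool 1), Clec7a (0.0542, without E2 pool 2), Cd5l (0.0515, without CAS pool 3) and Ccl2 (0.0507, without E2 pool 1). The genes were named because they had changed against CAS, so the interaction shares arrays with that choice. Interactions were not particular to the macrophage lists. Positive ones were called for 9 of 10 erythroid, 4 of 6 neutrophil and 2 of 12 osteoclast probe sets, with 0 negative in each list. Of 15 nerve probe sets, 0 were positive and 14 negative. Over all probe sets 4.17% were positive and 5.75% negative.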

How the results depend on the processing

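The numbers of members called moved as follows. SPI against E2, 2 in the fit reported, gave 1 with the replicate block, with quantile normalization and with trend and robust variance, 0 in a fit of these groups alone and 0 among the more variable probe sets, and 0 to 2 without single arrays, but 3 with a mean per gene and 3 with unmoderated variance, where C1qc was called too. SPI+E2 against CAS, 1 as reported, gave 2 with array weights, 2 with a mean per gene and 2 with unmoderated variance. SPI+E2 against SPI, 1 as reported, gave 2 with unmoderated variance, and the interaction 2 with a mean per gene and 2 with unmoderated variance. E2 against CAS, 0 as reported, gave 1 with unmoderated variance. SPI+E2 against E2, 2 as reported, gave 1 among the more variable probe sets. These held 3 of the 8 members and left out Csf1r. Its calls in SPI+E2 against E2 and in SPI against E2 were therefore not tested there. The calls gained in the comparisons other than SPI against E2 were of Csf1r. Of 1133 values of member differences under the alternatives, 1105 kept their side of the threshold, 9 gained and 19 lost a call, and 30 that were not called changed sign. Of 2578 for other named genes, 2292 kept their call and 285 lost it, and 1 reversed: RT1-Ba with E2 was -0.0515 when its probe sets were averaged. Of 3318 counts over the gene lists, 379 moved by more than 1.5 times. Deviations of same-numbered pools correlated from -0.0741 to 0.0305, -0.0736 to 0.142 and 0.0573 to 0.244 for numbers 1 to 3. All were thus positive for number 3. Whether same-numbered pools were handled together was not tested. The replicate block changed no other count of members. Centred values give no signal over background, so dim probe sets could not be told from bright ones.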
